A study of Mus musculus with 16 samples.

Results

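Wfs1 and 9 genes whose level followed it up or down were examined across 16 bulk RNA-seq libraries of the mouse cortex. The 10 genes were Wfs1, Nnat, Necab2, Rspo1, Rspo2, Dcn, Lamp5, Cbln4, Fermt1 and Mdga1, taken by gene name from a count table of 47593 genes. They had been chosen by 3 measured properties: wide variation among libraries of the same group, likeness to Wfs1 across libraries, and a pattern taken not to follow the diet. That variation, the likeness to Wfs1 and the diet difference are therefore given below as descriptions of the 10 genes, without a test. Of the 47593 genes, 16553 passed the filter on low counts and were tested, and all 10 were among them.

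All mice were 5xFAD, a model of Alzheimer's disease on a hybrid C57BL/6 and SJL background, heterozygous for human transgenes with familial mutations, APP among them. The neuron-specific Thy-1 promoter drives the transgenes, and the control mice carried them as well. Mice received the control diet with the carrier alone (vehicle) or the rapamycin diet from 2 to 5 months of age, when the cortex was taken. The groups were females on the control diet (FC) or on rapamycin (FR) and males on the control diet (MC) or on rapamycin (MR), with 4 libraries each. The labels call these biological replicates, and figure legends of the study give 4 mice per group. Its results text, however, speaks of cortices pooled for sequencing. Whether a library is 1 mouse is therefore not settled, and each n, SD and SE below is over libraries. The FR libraries are numbered 1, 2, 4 and 5, the others 1 to 4. By the labels, 11 libraries formed batch 1 and 5 formed batch 2 (FC4, FR4, FR5, MC4 and MR4).

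The 16 libraries held 16393501 to 20593089 read pairs assigned to genes, of which 2.64% to 6.99% were mitochondrial. One library went against its label. The library labelled male rapamycin 4 held 9935 read pairs of Xist, the RNA of the inactive X chromosome, and 0 of the genes Eif2s3y, Kdm5d, Uty and Ddx3y of the Y chromosome. The other male libraries held 1 to 17 read pairs of Xist and 1915 to 2231 Y-linked read pairs. The female libraries held 8678 to 23541 of Xist and 0 to 8 Y-linked. The sex results below are given with and without that library. The neurons of the dissected cortex were represented in every library, since the summed level of 7 markers of cortical glutamatergic neurons was 4874 to 7919 CPM (the read pairs of a gene relative to the scaled library total).

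The cerebral cortex is divided into layers and into areas with different functions, and many genes are transcribed in neurons of some areas or layers and not of others. Wfs1 encodes wolframin, a membrane protein of the endoplasmic reticulum whose loss causes Wolfram syndrome, and in the forebrain its transcript marks particular neuron populations rather than all neurons. Bulk RNA sums over all areas and layers that a dissected piece holds. In such tissue, fewer cells of a type and less RNA per cell cannot be told apart.

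The 10 genes lie on 7 chromosomes, with 4 of them (Nnat, Lamp5, Cbln4 and Fermt1) on chromosome 2. In the gene models of the count table (GRCm38), Wfs1 spans 36966104 to 36989205 on the minus strand of chromosome 5 with 8 merged exons. Nnat, which encodes neuronatin, spans 157560078 to 157562522 on the plus strand of chromosome 2. It lies within the span of Blcap, its imprinted neighbour, and shares 87 exon bases with the small RNA gene Gm23134. No other gene of the 10 shared exon bases with an annotated gene.

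RefSeq promoters of 300 bases (250 before to 50 after the gene start, GRCm38.p6) were given for 8 of the 10 genes, all but Rspo2 and Dcn. The promoters of Wfs1, of Necab2 (closest to it in pattern) and of Rspo1 and Lamp5 (which ran opposite to it) are shown 5′ to 3′ on the strand of the gene. They are Wfs1 at chr5:36988933-36989232 (minus), Necab2 at chr8:119446469-119446768 (plus), Rspo1 at chr4:124986180-124986479 (plus) and, of 2 Lamp5 entries, the one at chr2:136052089-136052388 (plus). Capitals mark the E-box CANNTG and the GC box GGGCGG, searched on both strands.
Wfs1: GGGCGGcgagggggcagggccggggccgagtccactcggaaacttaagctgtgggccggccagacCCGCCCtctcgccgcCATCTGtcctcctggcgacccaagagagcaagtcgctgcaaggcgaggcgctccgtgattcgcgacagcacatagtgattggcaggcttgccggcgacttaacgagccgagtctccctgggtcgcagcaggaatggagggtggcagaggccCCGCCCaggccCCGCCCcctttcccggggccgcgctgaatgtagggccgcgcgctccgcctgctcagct
Necab2: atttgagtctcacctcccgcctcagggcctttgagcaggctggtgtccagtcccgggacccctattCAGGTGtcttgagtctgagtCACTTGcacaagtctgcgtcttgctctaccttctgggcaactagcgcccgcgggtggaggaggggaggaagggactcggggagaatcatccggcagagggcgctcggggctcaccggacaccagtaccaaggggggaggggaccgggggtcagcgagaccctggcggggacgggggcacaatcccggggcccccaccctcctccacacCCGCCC
Rspo1: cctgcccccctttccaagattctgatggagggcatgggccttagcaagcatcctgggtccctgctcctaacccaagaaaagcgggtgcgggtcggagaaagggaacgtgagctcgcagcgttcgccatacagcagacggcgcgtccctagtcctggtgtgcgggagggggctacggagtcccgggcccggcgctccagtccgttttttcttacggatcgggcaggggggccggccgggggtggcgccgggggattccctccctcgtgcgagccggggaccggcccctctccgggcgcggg
Lamp5: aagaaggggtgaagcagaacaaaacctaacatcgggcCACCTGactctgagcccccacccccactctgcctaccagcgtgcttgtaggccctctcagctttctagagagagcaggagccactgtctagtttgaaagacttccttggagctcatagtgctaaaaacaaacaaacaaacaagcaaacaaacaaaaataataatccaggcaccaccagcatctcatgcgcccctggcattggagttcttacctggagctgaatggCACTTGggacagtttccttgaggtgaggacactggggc

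The Wfs1 promoter held 1 E-box and 4 GC boxes and was 70.0% G and C, against a median of 52.7% over 27025 promoters. Necab2 held 2 E-boxes and 1 GC box, Lamp5 held 2 E-boxes and no GC box in each entry, and Rspo1 held neither. Over the 8 genes, 5 promoters held an E-box and 5 a GC box, which 72.1% and 35.9% of all promoters hold. The motifs TAATTA (a homeodomain core), TATAAA (the TATA box), TGACGTCA (CRE) and ATGCAAAT (the octamer) were in 0 of the 8, and in 5.31%, 14.2%, 1.88% and 1.75% of all promoters. None of the motifs contains another. A match is a run of letters and not a measured binding site.

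Levels between genes were compared per exon length, as RPKM, which divides CPM by the exon length in kilobases. By the median over 16 libraries, Nnat was highest at 88.8 RPKM, followed by Lamp5 at 62.2, Wfs1 at 38.6 and Necab2 at 24.4. Dcn at 9.72, Cbln4 at 9.12, Rspo1 at 6.61 and Rspo2 at 6.53 RPKM came next. Mdga1 had 3.00 RPKM and Fermt1 0.404. The order of neighbours is loose, because each gene's range over the libraries was wider than the step to the next. Wfs1 alone spanned 16.4 to 139.8 RPKM and Lamp5 26.9 to 119 RPKM.

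The levels of each gene in every library follow in CPM, in the order of the library numbers. Wfs1 had 235, 74.5, 139.5 and 153 CPM in FC and 529, 77.1, 109 and 202 CPM in FR. In males it had 62.2, 87.1, 291 and 97.1 CPM in MC and 346, 98.5, 358 and 395 CPM in MR. FR1 was the highest library and MC1 the lowest, 8.51-fold apart, while the median tested gene spanned 2.15-fold. The lowest library of a group was at 62.2 to 98.5 CPM and the highest at 235 to 529 CPM, so all 4 groups overlapped. FR2 and MR2 were low in groups whose other libraries ran higher, and MC3 was high in a group whose other libraries ran low.

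Necab2 encodes a neuronal calcium-binding protein with EF hands. Its levels were 82.2, 28.3, 45.1 and 57.1 CPM in FC and 174, 33.3, 38.7 and 72.6 CPM in FR. The male libraries held 24.5, 40.4, 111 and 21.1 CPM in MC and 124, 31.1, 98.5 and 133 CPM in MR. The order followed that of Wfs1: FR1 was again highest, and in every group the library with the most Wfs1 also had the most Necab2. The lowest library, MC4, was not the lowest in Wfs1, and the span was 8.23-fold.

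Nnat, whose small product also sits in the endoplasmic reticulum, had 209, 97.8, 154 and 125 CPM in FC and 402, 71.4, 115 and 174 CPM in FR. Its male levels were 49.8, 171, 221 and 53.5 CPM in MC and 324, 86.1, 218 and 248 CPM in MR. The extremes were those of Wfs1, FR1 and MC1, 8.07-fold apart. MC2 departed from the pattern, with the fourth lowest Wfs1 of the 16 libraries and a middling Nnat. All groups overlapped for Nnat and Necab2 as well.

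R-spondins are secreted proteins that strengthen Wnt signalling through the receptors Lgr4, Lgr5 and Lgr6 by removing the ubiquitin ligases Znrf3 and Rnf43. The 2 R-spondin genes ran in opposite directions. Rspo2 had 40.3, 13.8, 31.01 and 13.3 CPM in FC and 36.8, 7.94, 11.3 and 26.8 CPM in FR. Male libraries gave 11.8, 16.6, 61.4 and 11.9 CPM in MC and 38.2, 7.23, 36.8 and 40.1 CPM in MR. MC3 was highest and MR2 lowest, 8.49-fold apart, and MC3 stood far above the other MC libraries.

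Rspo1, a gene also known from excitatory neurons of layer 4 in sensory cortex, had 5.72, 25.1, 10.8 and 14.8 CPM in FC and 5.10, 25.7, 18.97 and 7.51 CPM in FR. The corresponding male values were 26.8, 25.3, 6.92 and 17.1 CPM in MC and 2.46, 31.1, 7.06 and 2.52 CPM in MR. The libraries rich in Rspo1 were those poor in Wfs1 (FC2, FR2, MC1, MC2 and MR2), and the lowest levels were in MR1 and MR4. The span, 12.6-fold, was wider than that of Rspo2. The ratio of Wfs1 to Rspo1 in CPM went from 2.32 in MC1 to 157 in MR4.

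Cbln4 encodes a secreted cerebellin, a synapse organizer that bridges neurexins to receptors on the other side. It had 45.00, 14.1, 24.8 and 20.7 CPM in FC and 45.1, 21.6, 18.2 and 28.2 CPM in FR. For males the values were 12.3, 41.6, 99.2 and 14.8 CPM in MC and 57.7, 20.7, 66.8 and 58.8 CPM in MR. MC3 held 99.2 CPM, 8.06 times the 12.3 CPM of MC1. MC2 was again in the upper part of its group, as it was for Nnat. In MR, MR1 (57.7 CPM), MR3 (66.8 CPM) and the library labelled male rapamycin 4, whose sex-linked counts are those of a female (58.8 CPM), lay above every library labelled female, while MR2 lay inside the range of both female groups.

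Dcn encodes decorin, a small leucine-rich proteoglycan of the extracellular matrix that fibroblasts make in quantity. It had 39.7, 15.5, 26.2 and 15.6 CPM in FC and 35.5, 6.04, 12.2 and 17.3 CPM in FR. Male levels were 6.78, 26.9, 43.2 and 9.90 CPM in MC and 38.3, 6.996, 29.5 and 23.2 CPM in MR. FR2 was lowest and MC3 highest, 7.15-fold apart. MR4 had the second highest Wfs1 and a middling Dcn, and MC2 had the fourth lowest Wfs1 and ranked above MR4 in Dcn. The summed level of 11 fibroblast and meningeal markers ran from 84.6 CPM in FR1 to 313 CPM in MC2. That sum had r = -0.0029 with Wfs1 and 0.14 with Dcn. Taken singly, 6 of the 11 had a positive and 5 a negative r with Wfs1, from -0.39 to 0.28. None of the 11 was without counts, and their part in the Dcn level was not tested. The range of that sum was 102 to 212 CPM in FC, 84.6 to 233 in FR, 124 to 313 in MC and 103 to 267 in MR.

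Lamp5 encodes a lysosome-associated membrane protein family member of neurons, found in upper-layer pyramidal cells and a class of interneurons. It had 148, 271, 236 and 180.2 CPM in FC and 78.9, 309, 185 and 162 CPM in FR. The males had 297, 349, 159 and 217 CPM in MC and 104, 348, 159 and 88.6 CPM in MR. It ran opposite to Wfs1: FR1, highest in Wfs1, was lowest in Lamp5, and MC2, MR2, FR2 and MC1 were the 4 highest in Lamp5. Its range, 4.43-fold, was the narrowest of the 10. The ratio of Wfs1 to Lamp5 in CPM was 0.209 in MC1 and 6.71 in FR1.

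Mdga1 encodes a membrane-anchored protein that binds neuroligins and limits synapse formation. It had 42.3, 13.5, 35.4 and 43.3 CPM in FC and 19.9, 6.69, 22.4 and 34.9 CPM in FR. In males it had 8.62, 27.6, 44.8 and 21.6 CPM in MC and 41.9, 7.11, 34.2 and 28.7 CPM in MR. FR2 and MR2 were lowest and MC3 highest, 6.71-fold apart. FR1, with the most Wfs1 of all, had less Mdga1 than 11 other libraries, and FC4 had the second highest level.

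Fermt1 encodes kindlin-1, an activator of integrins known from epithelial cells. It had the lowest counts and the widest range. Its levels were 7.28, 0.679, 3.05 and 1.56 CPM in FC and 6.38, 0.218, 1.55 and 6.94 CPM in FR. In the males they were 0.832, 1.35, 20.5 and 1.06 CPM in MC and 10.99, 0.178, 11.2 and 15.5 CPM in MR. MC3 held 355 read pairs and MR2 held 3, a ratio of 115 after scaling, with a 95% exact counting interval of 39.0 to 561 that covers counting error only. The 5 libraries with under 1.1 CPM (FR2, MR2, FC2, MC1 and MC4) were all low in Wfs1.

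**Figure D1:**
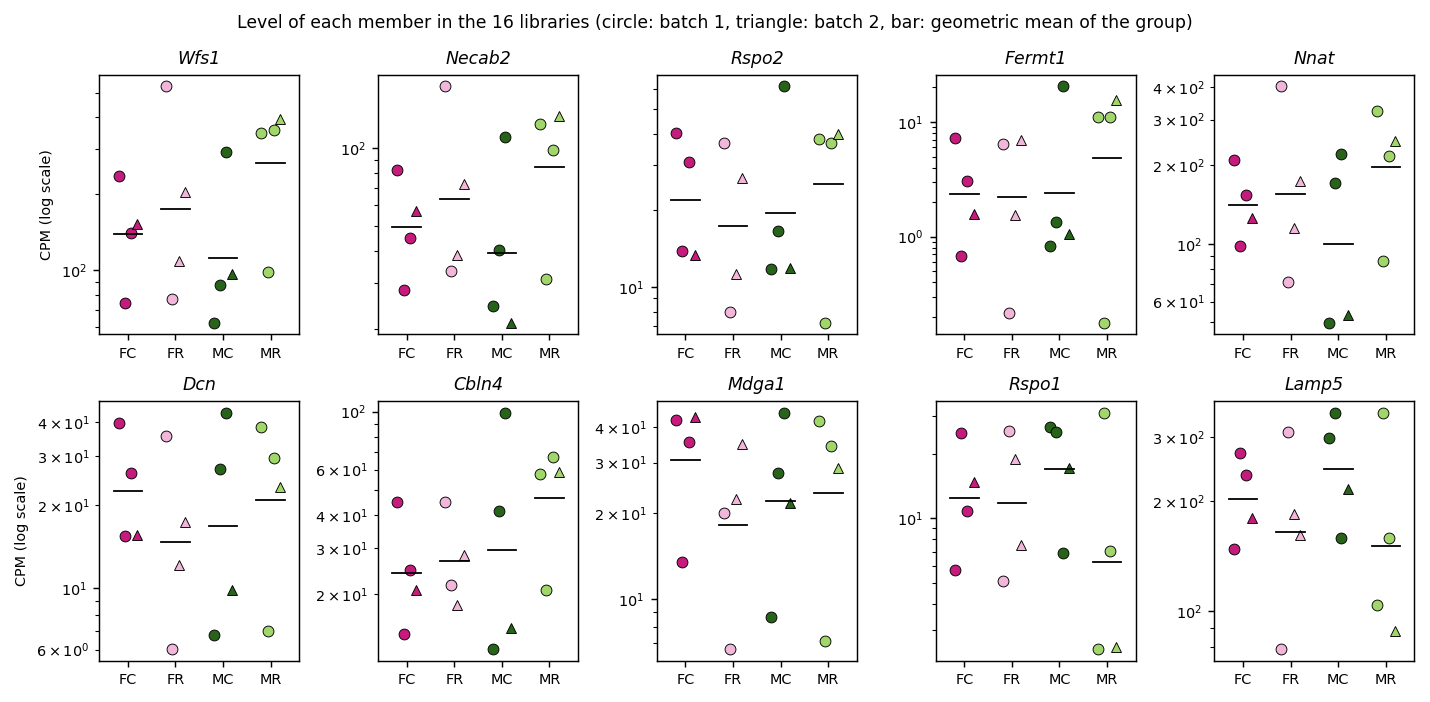
Level of each of the 10 genes in CPM (log scale) by group, each point 1 library, circles for batch 1, triangles for batch 2 and a bar for the geometric mean of the group. The 4 groups overlap for each gene, with Fermt1 running from 0.178 to 20.5 CPM and Lamp5 from 78.9 to 349 CPM.

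The likeness of each gene to Wfs1 was measured as the correlation of deviations from the group means on the log2 CPM scale, over 16 libraries. These points share the library and its depth, and the genes were chosen for this pattern, so the values only describe it. Pearson's r to Wfs1 was 0.96 for Necab2 and 0.92 for Rspo2. It was 0.91 for Fermt1, 0.88 for Nnat, 0.88 for Dcn, 0.84 for Cbln4 and 0.77 for Mdga1. Rspo1 and Lamp5 ran the other way, with -0.90 and -0.91. The median size of r over the 9 genes was 0.90, beside 0.22 over all tested genes.

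Ranks gave a like picture, with Spearman's rank correlation at 0.95 for Necab2, 0.91 for Rspo2, 0.91 for Fermt1, 0.85 for Nnat and 0.84 for Dcn. It was 0.86 for Cbln4, 0.68 for Mdga1, -0.90 for Rspo1 and -0.91 for Lamp5. Without FR1 and MR4, the 2 libraries farthest from the median of Wfs1, r stayed between 0.84 and 0.96 for the 7 genes that ran with it and was -0.91 for Rspo1 and -0.88 for Lamp5. Mdga1 was the gene most altered by this, from 0.77 to 0.90. In the 11 libraries of batch 1 alone, r ran from 0.88 (Cbln4) to 0.99 (Necab2) and was -0.92 for Rspo1 and -0.94 for Lamp5. In batch 2 (5 libraries) Wfs1 ran from 97.1 to 395 CPM and Rspo1 from 2.52 to 18.97, so both batches held low and high libraries.

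**Figure D2:**
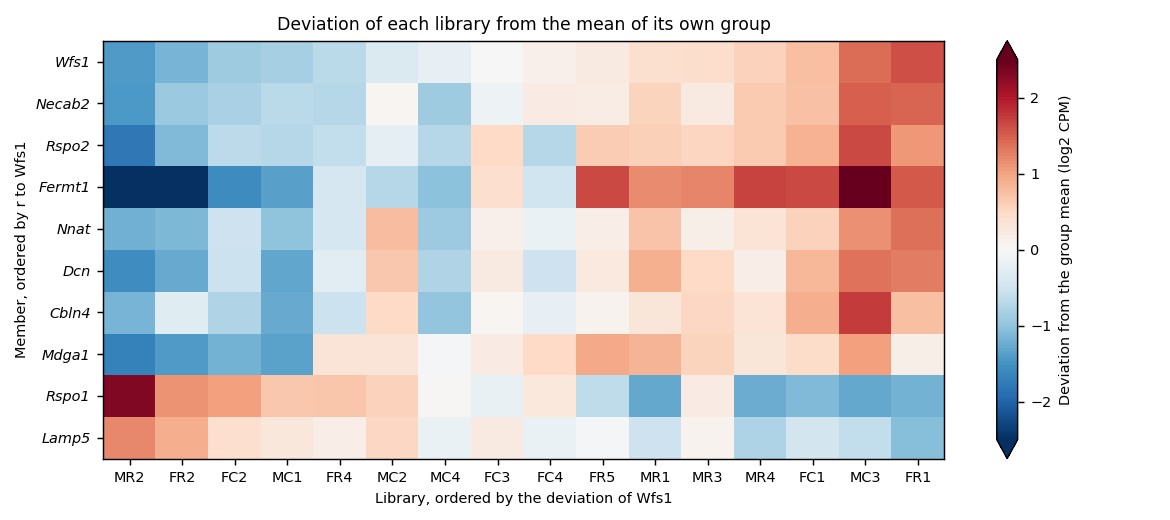
Deviation of each library (columns, ordered by Wfs1) from the mean of its own group for each gene (rows), in log2 CPM, red above and blue below the mean. The colours turn from blue to red along the row for 8 genes and from red to blue for Rspo1 and Lamp5, and the MC2 column is red for Nnat, Dcn and Cbln4 while Wfs1 is blue there.

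Some of the 10 were closer to one another than to Wfs1. Nnat and Dcn had r = 0.98, Rspo2 and Fermt1 0.97, and Rspo1 and Lamp5 0.93. The 28 pairs among Wfs1 and these 7 genes had r from 0.73 to 0.98 with a median of 0.88. The 16 pairs of one of these with Rspo1 or Lamp5 had r from -0.93 (Fermt1 with Rspo1) to -0.62 (Cbln4 with Lamp5).

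**Figure D3:**
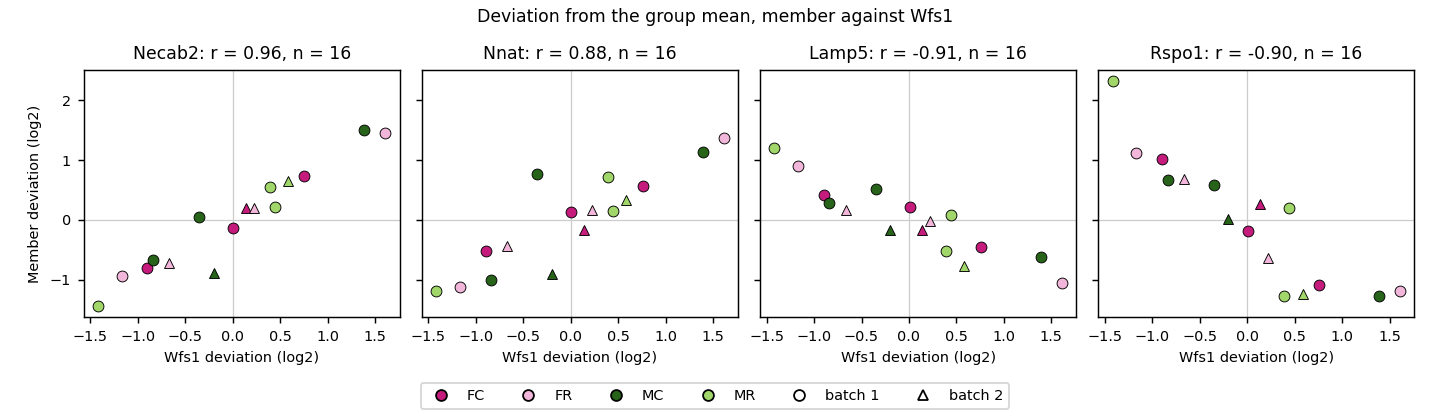
Deviation of Necab2, Nnat, Lamp5 and Rspo1 from the group mean (log2 CPM) against that of Wfs1, 1 point per library, coloured by group and with triangles for batch 2. Necab2 (r = 0.96) lies closest to a line, MC2 lies above it for Nnat (r = 0.88), and Lamp5 (r = -0.91) and Rspo1 (r = -0.90) slope downward.

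The spread of the 10 genes was wide for their libraries. The SD within groups was 0.97 log2 units for Wfs1, 0.68 for Lamp5 and 2.12 for Fermt1, against a median of 0.30 over all tested genes, and each of the 10 was at or above percentile 88.5 of the tested genes. Over all tested genes, 175 had r of at least 0.8 with Wfs1 and 92 had r of -0.8 or less, together 1.61%.

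Outside the 10, the genes most like Wfs1 at a mean of at least 1 CPM were Camk2d (r = 0.96), Fam19a2 (0.96), Mum1l1 (0.96), Slc6a7 (0.95) and Wnt7b (0.95). Camk2d encodes the delta subunit of calcium/calmodulin-dependent kinase II, Slc6a7 a brain proline transporter and Wnt7b a Wnt ligand. Their levels spanned 74.6 to 221 CPM for Camk2d, 62.2 to 124 for Slc6a7 and 16.9 to 75.8 for Wnt7b. Fam19a2 ran from 38.9 to 92.4 CPM and Mum1l1 from 1.25 to 6.23 CPM. The most opposed were Rassf3 (r = -0.98), Mkx (-0.94), Sytl2 (-0.94), Cd34 (-0.93) and Npnt (-0.93). Rassf3 spanned 23.4 to 97.6 CPM, lowest in FR1 and highest in MR2. Mkx, a homeobox gene, spanned 6.58 to 28.1 CPM, Sytl2 46.7 to 123, Cd34 48.7 to 133 and Npnt, which encodes the matrix protein nephronectin, 12.5 to 68.8.

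Lists of marker genes for cortical areas, layers and cell types were compared with Wfs1 in the same way. Of 7 genes of the claustrum and lateral cortex, 7 had a positive r, with a median of 0.50. The nuclear receptor Nr4a2 had 0.87 and ran from 17.2 to 186 CPM, the netrin-G gene Ntng2 had 0.86 and the carboxypeptidase inhibitor Lxn 0.79. The summed level of the list had r = 0.81 with Wfs1, 0.85 with Rspo2 and -0.76 with Rspo1, and ran from 323 CPM in FR4 to 705 CPM in FR1. By group it was 381 to 656 CPM in FC, 323 to 705 in FR, 328 to 559 in MC and 420 to 609 in MR.

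Of 8 striatal markers, 8 had a positive r, from 0.09 (Ppp1r1b) to 0.79 (the dopamine receptor gene Drd1). Their sum had r = 0.58 with Wfs1 and ran from 177 CPM in MC1 to 361 CPM in FR1. It was 205 to 275 CPM in FC, 215 to 361 in FR, 177 to 270 in MC and 218 to 267 in MR. No marker of either list was at 0. The part of claustral, lateral or striatal tissue in the Wfs1 level was not tested.

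The 18 genes with known area patterns in the cortex were divided, 10 with a positive and 8 with a negative r. Nr2f2, a nuclear receptor of caudal and ventral territories, had 0.87, and Cyp26b1, which breaks down retinoic acid, had 0.83. The lowest was Efna5, a guidance ligand, at -0.65. Among 11 upper-layer genes, 7 were negative, with Pou3f2 at -0.89, whereas Lhx2 was at 0.77. Of 7 genes of layer 4 in sensory areas, 6 were negative, led by Rorb at -0.77, and Rorb ran from 21.04 to 66.2 CPM.

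The 6 endothelial and the 6 oligodendrocyte markers all had a negative r, with summed levels at r = -0.70 and -0.44. The endothelial sum was 234 to 286 CPM in FC, 247 to 350 in FR, 237 to 327 in MC and 225 to 342 in MR. The oligodendrocyte sum was 3650 to 5911 CPM in FC, 4187 to 9465 in FR, 4249.9 to 5911 in MC and 3631 to 6516 in MR. The 7 glutamatergic markers were divided, 2 with a positive and 5 with a negative r, and their sum had r = -0.52. None of these lists held a gene at 0, and their part in the levels of the 10 genes was not tested. Depth had r = 0.34 with Wfs1, the mitochondrial share -0.17 and the slope of log2 deviations on exon length 0.12.

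**Figure D4:**
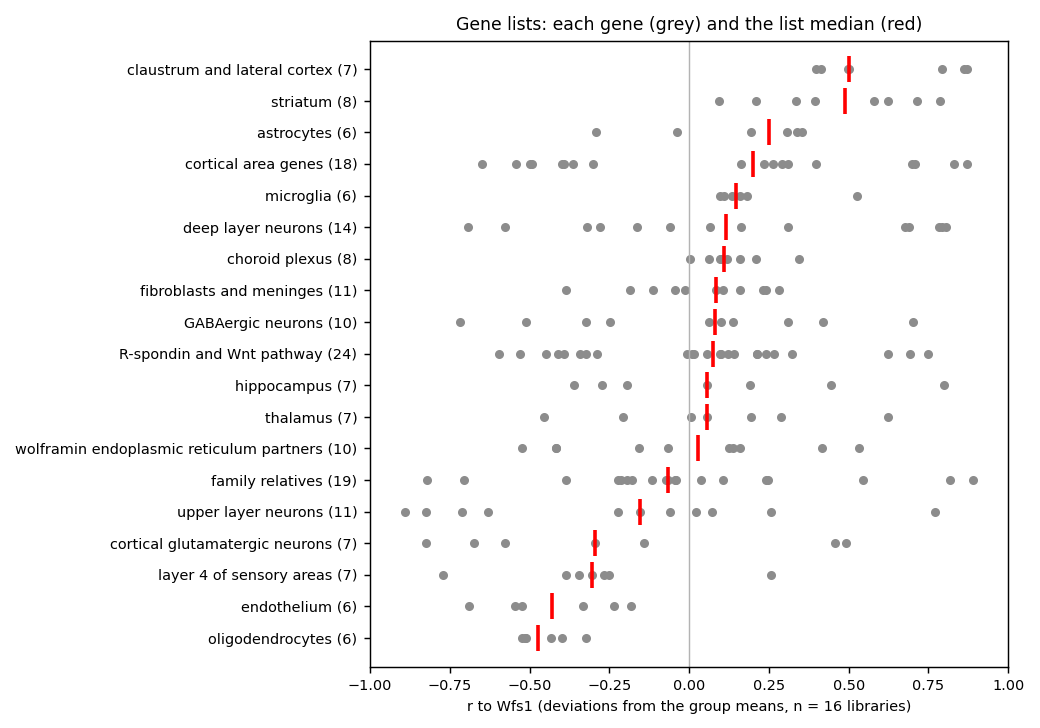
Correlation with Wfs1 of each gene (grey point) of 19 gene lists with more than 1 tested gene, and the median of each list (red bar), from deviations from group means over 16 libraries, with the number of tested genes in brackets. The claustrum, striatum, choroid plexus and microglia lists lie wholly above 0, the last 2 with medians of 0.11 and 0.15, and the endothelium and oligodendrocyte lists wholly below.

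Relatives of the 10 genes did not all share their pattern. Of 19 tested relatives, 7 had a positive and 12 a negative r with Wfs1, with a median of -0.07. The list of relatives also held the host gene Blcap and Cisd2, which is counted again below among the partners of wolframin. Necab1 ran with Wfs1 (r = 0.89, 74.2 to 268 CPM) and Necab3 against it (-0.71). The cerebellin Cbln2 ran opposite to Cbln4 (r = -0.82 with Wfs1, 9.64 to 57.3 CPM), and Cbln1 had 0.55. Blcap, which contains Nnat, had r = 0.82 and spanned 76.5 to 136 CPM. The third R-spondin tested, Rspo3, had r = 0.25.

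The R-spondin and Wnt pathway list had 24 tested genes, 15 with a positive and 9 with a negative r, and a median of 0.08. The R-spondin receptor gene Lgr5 was highest at 0.75, at 0.534 to 3.11 CPM, and Axin1 lowest at -0.60. Of 10 partners of wolframin in the endoplasmic reticulum and its stress response, 5 were positive and 5 negative, from -0.53 (Atf6) to 0.53 (Hspa5).

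The difference between the sexes was not used in choosing the genes. By edgeR's quasi-likelihood test (terms sex, batch and treatment, Benjamini-Hochberg adjusted), 0 of the 10 genes differed, beside 0.0302% of all tested genes (5 genes, Ddx3y, Eif2s3y, Uty, Kdm5d and Gm29650). At an unadjusted p under 0.05 there were 0 of the 10 and 992 of all genes, and DESeq2 called 0 of the 10 and 11 of all. The difference (male minus female, log2) was largest for Fermt1, at 1.09 (SE 0.75, 95% interval -0.50 to 2.67). For Cbln4 it was 0.70 (SE 0.37, interval -0.069 to 1.47), with an adjusted p of 0.832 in edgeR's quasi-likelihood test. Cbln4 had a mean of 27.2 ± 11.8 CPM in females and 46.5 ± 30.1 CPM in males (SD, n = 8 each, by the labels). Without the library labelled male rapamycin 4, the male mean was 44.7 ± 32.0 CPM (n = 7). The other 8 genes lay between -0.077 (Nnat, interval -0.83 to 0.68) and 0.27 (Rspo2, interval -0.61 to 1.15).

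Without the library labelled male rapamycin 4, the difference was 0.68 (SE 0.85) for Fermt1, 0.49 (SE 0.40) for Cbln4 and -0.11 (SE 0.42) for Wfs1. In that fit 0 of the 10 genes differed by sex, beside 7 of all 16861 tested genes. With no filter on low counts edgeR called Cbln4 (adjusted p = 0.0275), when the degrees of freedom behind its test went from 17.8 to 116. The unfiltered fit called 113 of 30248 genes by sex.

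The interaction of sex and rapamycin asks whether the rapamycin minus vehicle difference was larger in one sex. By edgeR's quasi-likelihood test 0 of the 10 genes had one, and the adjusted p was 0.999 for each. Over all genes the share was 0%, with 360 genes at an unadjusted p under 0.05 and 0 by DESeq2. The values (male minus female, log2) ran from -1.02 for Rspo1 (SE 1.00, 95% interval -3.13 to 1.09) to 0.93 for Mdga1 (SE 0.75, interval -0.65 to 2.51). For Wfs1 the value was 0.56 (SE 0.81, interval -1.16 to 2.28). Without the library labelled male rapamycin 4 it was 0.20 (SE 0.85) for Wfs1, -0.56 (SE 1.00) for Rspo1 and 1.06 (SE 0.82) for Mdga1. With no filter on low counts edgeR called Rspo1 and Mdga1, when the degrees of freedom came to 332728. The unfiltered fit called 87 of 30248 genes for the interaction.

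**Figure D5:**
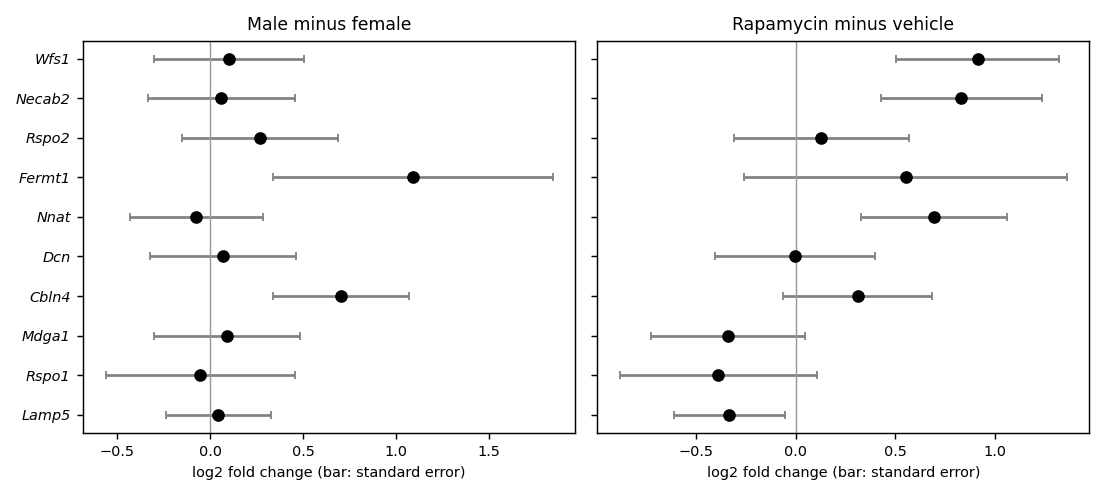
Fitted log2 differences of the 10 genes between males and females (left) and between rapamycin and vehicle (right), with bars for the standard error over 16 libraries. In the left panel 0 of the 10 passed the test; the right panel is a description, running from -0.39 (Rspo1) to 0.91 (Wfs1).

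The diet difference was part of the choice of these genes and is given as values. The fitted rapamycin minus vehicle difference (log2) was 0.91 for Wfs1 (SE 0.41), 0.83 for Necab2 (SE 0.41) and 0.69 for Nnat (SE 0.37). It was 0.55 for Fermt1 (SE 0.81), 0.31 for Cbln4 (SE 0.37), 0.13 for Rspo2 (SE 0.44) and -0.0030 for Dcn (SE 0.40). The remaining values were -0.33 for Lamp5 (SE 0.28), -0.34 for Mdga1 (SE 0.39) and -0.39 for Rspo1 (SE 0.50). Wfs1 was at 62.2 to 291 CPM under vehicle (median 118) and 77.1 to 529 CPM under rapamycin (median 274), and the diets overlapped for each of the 10. Over all genes, 13.3% differed by diet (6.46% higher and 6.86% lower under rapamycin).

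Diet was also tested for the lists of relatives, of R-spondin and Wnt pathway genes and of wolframin partners. The choice of the genes above had not used these lists. The lists were, however, drawn up with earlier results of these data known. Their counts of genes that differed by diet are therefore not independent of those results. By edgeR's quasi-likelihood test, 0 of 19 relatives differed, beside 13.3% of all tested genes (2205 of 16553). DESeq2 called 1, beside 3131 of all 16553. The smallest adjusted p was 0.0593, for Mdga2 (log2 difference -0.35, SE 0.12). Host gene Blcap had 0.19 (SE 0.11, adjusted p = 0.248). Leaving out FR4, MC2, MR1 or MR3 gave 1 relative. Those fits called 3352, 1520, 2603 and 2926 of all tested genes, in that order.

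Of 24 genes of the R-spondin and Wnt pathway, 1 rose and 2 fell under rapamycin by edgeR's quasi-likelihood test, a share near the 13.3% of all tested genes. Sdc4, a heparan sulphate proteoglycan, rose by 0.61 (log2, SE 0.10, adjusted p = 0.00879). Gsk3b, the kinase of the beta-catenin destruction complex, had -0.42 (SE 0.11, adjusted p = 0.0241), and the Wnt receptor Fzd3 had -1.17 (SE 0.26, adjusted p = 0.0140). The median over the list was -0.06, beside 0.02 over all tested genes. Without FR4 the count was 5, beside 3352 of all 16727 tested genes. With no batch term it was 1, beside 142 of all 16553.

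Of 10 wolframin partners, 0 rose, 5 fell and 5 did not pass, beside 6.46% higher and 6.86% lower of all tested genes. Atp2a2, the calcium pump of the endoplasmic reticulum, had a log2 difference of -0.37 (SE 0.07, adjusted p = 0.0119), and Itpr1, its calcium release channel, had -0.63 (SE 0.14, adjusted p = 0.0145). The stress sensors Atf6 and Eif2ak3 had -0.43 (SE 0.10, adjusted p = 0.0187) and -0.29 (SE 0.08, adjusted p = 0.0331). Sel1l, of the degradation machinery, had -0.30 (SE 0.09, adjusted p = 0.0380). The chaperone Hspa5 did not pass (0.02, SE 0.11), nor did Cisd2 (0.02, SE 0.06). The median was -0.29, beside 0.02 over all tested genes. The count was 1 with no batch term, 3 in batch 1 alone, and 3 when FC1, FC2, FC3, FR1, FR2, FR5, MC3, MC4 or MR2 was left out. Over all fits with 1 library left out, the count ran from 3 to 6. The count over all tested genes moved too. It was 142 with no batch term, 1240 in batch 1 alone and 719 to 3352 with 1 library left out.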

How the data were processed

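Cortical RNA was sequenced as 16 paired-end libraries, 4 per group. The authors deposited counts of read pairs per gene, with no normalization, and repeated them in a table for each group (0 of 761488 cells differed). The submitters' processing notes name Trim Galore, FastQC 0.11.9, Trimmomatic 0.39, HISAT2 2.2.1 and featureCounts 2.0.3 with mm10 (GRCm38), and counting did not use strand. These deposited counts cover 47593 genes, 17345 of them without a count.

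Counts were analysed in R 4.3.3 with edgeR 4.0.16: filterByExpr with a minimum count of 10 (16553 genes, 99.9% of read pairs), TMM factors (0.950 to 1.043), log2 CPM with a prior count of 2, and the quasi-likelihood test on the terms sex, batch and treatment (for the interaction, the 4 groups and batch). P-values were adjusted by Benjamini-Hochberg over all tested genes and called under 0.05. DESeq2 1.42.0, another scaling, no filter, no batch term, the replicate block, batch 1 alone and leaving out each library were alternatives. The test was run on simulated data first. Likeness was computed in Python 3.11.15 with pandas 2.3.3 and SciPy 1.17.1.

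The members and lists were chosen with earlier results of these data known. Named are the 10 members, Blcap, and the 5 genes most and 5 least like Wfs1 at a mean of at least 1 CPM. Genes called by diet are named as such only for the lists of relatives, R-spondin and Wnt pathway genes and wolframin partners. Genes of the marker lists also passed for diet (Ntng2, Cyp26b1, Lhx2 and Bcl11b among them), and these calls are not listed. Other list genes named for a high or low r were chosen after their values were seen. One list gene that would have been named for its r is not reported here; list counts and sums contain it. Intervals of counts cover counting error only.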

Additional observations from a re-analysis of the deposited data

Results flagged for a closer look

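In 13 of 85 groups of 4 libraries examined, 1 library stood apart from the other 3 by Dixon's criterion (the gap to the nearest library over the range of the group). Of the 40 groups of the 10 genes, 6 were among them. The cutoff is set for about 1 in 20 groups by chance. These counts cannot be set against that share, because the 10 genes were chosen for wide variation within groups. Camk2d, Wnt7b, Rassf3 and Mkx were chosen for following or opposing Wfs1. MC3 had the highest level of its group for Wfs1 (291 CPM), Rspo2 (61.4 CPM) and Fermt1 (20.5 CPM), and also for Camk2d (209 CPM) and Wnt7b (54.6 CPM). MR2 had the lowest level of its group for Wfs1 (98.5 CPM), Rspo2 (7.23 CPM) and Camk2d (105 CPM), and the highest for Rspo1 (31.1 CPM), Rassf3 (97.6 CPM) and Mkx (28.1 CPM). These values are not independent, since the genes follow one another across libraries. The library labelled male rapamycin 4 had the highest Xist of its group (512 CPM) and the lowest summed Y-linked level (0 CPM).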

How the results depend on the processing

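The median size of r to Wfs1 over the 9 genes kept within 0.883 to 0.916 when any 1 library was left out. No member was called for sex or for the interaction when any 1 library was left out. The count of genes that differed by sex was 5, against 11 with DESeq2, 113 with no filter on low counts, 8 in batch 1 alone and 4 to 7 with 1 library left out. With no filter, edgeR called 1 member for sex and, for the interaction, 2 members and 87 genes in all. The count by diet was 2205, against 374 with a fold change of at least 1.5, 142 with no batch term, 1240 in batch 1 alone and 719 to 3352 with 1 library left out (719 without FR1, 868 without FR2, 988 without MR2, 1234 without MC4, 1383 without FC3 and 3352 without FR4). Leaving out libraries or batch 2 leaves fewer samples, and the fold threshold is stricter. The diet count was nevertheless higher without FR4 (3352), MR3 (2926) or MR1 (2603). The cause of these shifts was not tested.

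The replicate numbers were not taken to pair the libraries, since no label ties them and not every same-numbered pair had an r of deviations over 0.1. Of 21 such pairs 18 did (r from -0.157 to 0.675, median 0.252), with the 3 others among libraries numbered 1, and 17 of 33 pairs of different number within a batch did (median 0.107). Of 15 libraries, 12 correlated best with one of their own number, which is a hint of pairing from the data and not the design, and all libraries numbered 4 are of batch 2. With a replicate block in place of batch, 3 genes differed by sex and 1298 by diet, and 0 of the 10 members passed for sex or the interaction. The sex difference changed sign with the replicate block for Nnat (0.041) and Rspo1 (0.024), with no batch term for Rspo1 (0.016), and in batch 1 alone for Wfs1 (-0.10), Necab2 (-0.045) and Rspo1 (0.20). With 1 library left out it ran from -0.18 to 0.47 for Wfs1, -0.29 to 0.19 for Nnat, -0.24 to 0.40 for Necab2, -0.52 to 0.23 for Rspo1, -0.084 to 0.43 for Rspo2, -0.12 to 0.24 for Dcn, -0.16 to 0.24 for Lamp5 and -0.12 to 0.27 for Mdga1. Of these, none passed the test at any setting. Depth limits Fermt1 most, with 3 read pairs in its lowest library.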

Other observations

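The summed level of 8 choroid plexus genes varied most, from 14.8 CPM in FC4 to 1948 CPM in MC4, with r = 0.09 to Wfs1. Sums of hippocampal genes (30.8 to 75.5 CPM) had r = 0.22, thalamic genes (76.2 to 182 CPM) 0.01, deep-layer genes (505 to 781 CPM) 0.18, GABAergic genes (816 to 1195 CPM) -0.11, microglial genes (281 to 714 CPM) 0.17 and astrocyte genes (3182 to 6186 CPM) 0.05. Of 7 hippocampal genes tested, 4 had a positive and 3 a negative r, from -0.36 to 0.80 (Fibcd1). Of 14 deep-layer genes tested, 8 were positive and 6 negative, from -0.69 to 0.80 (Bcl11b). The amygdala and hypothalamus list had 1 tested gene of 3, Lhx9 (r = -0.21). Within the GABAergic list Gad2 had r = 0.70 and Pvalb -0.72.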
